A study of Mus musculus with 4 samples.

Results

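The sites described here are those that the authors' list of POU2F3 binding places within about 100 kb of 5 genes for enzymes and helper proteins of eicosanoid synthesis: Ptgs1, Hpgds, Alox5, Alox5ap and Ltc4s. A site was counted for a gene when its midpoint lay in a window drawn around that gene in mm9 coordinates, and this choice used no score or width. The genes and windows were, however, chosen with earlier results of these data known. The windows held 10 of the 2828 listed sites, or 0.354%, and none of the 5 genes was without a site. POU2F3 was profiled by ChIPmentation, in which the Tn5 transposase adds the sequencing adaptors to chromatin that is still bound to the beads. The cells were tuft cells sorted from the proximal small intestine of male C57BL/6J mice on CD45, EpCAM and Siglec F; the labels give no age, mutant allele or treatment, and all groups share strain and cell source. The groups were POU2F3 ChIP (2 samples), a control IgG (1 sample) and input DNA (1 sample), and per the labels' protocols the replicates were pools of cells, 2 in number, that came from 3 mice. Only the list of sites was used, with 1 score and 1 pair of coordinates per site, so depth is unknown and no value has an error between replicates.

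Eicosanoids are lipid signals made from arachidonic acid, a fatty acid cut from membranes. In the prostaglandin branch, Ptgs1 encodes cyclooxygenase 1, which makes prostaglandin H2, and Hpgds encodes the haematopoietic prostaglandin D synthase, which turns prostaglandin H2 into prostaglandin D2. In the leukotriene branch, Alox5 encodes 5-lipoxygenase, Alox5ap encodes the membrane protein FLAP that presents arachidonic acid to it, and Ltc4s encodes leukotriene C4 synthase, which joins leukotriene A4 to glutathione and so makes the first of the cysteinyl leukotrienes. Intestinal tuft cells are known to express these genes and to release cysteinyl leukotrienes towards innate lymphoid cells of the gut. POU2F3 is the POU-domain transcription factor that tuft cells need to form, and factors of its family bind the octamer, whose letters are ATGCAAAT.

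Promoters were read from RefSeq for the build GRCm38.p6, in which 4 of the 5 genes had an entry, each with 1 promoter, and Alox5ap had none. The sequences of all 4 are printed, to show which of them holds the octamer. Each run is the 250 bases before the start, 5′ to 3′ on the gene's own strand, and capitals mark the octamer where a search of both strands found it.
Ptgs1 (GRCm38.p6, chr2:36230176-36230425, plus strand): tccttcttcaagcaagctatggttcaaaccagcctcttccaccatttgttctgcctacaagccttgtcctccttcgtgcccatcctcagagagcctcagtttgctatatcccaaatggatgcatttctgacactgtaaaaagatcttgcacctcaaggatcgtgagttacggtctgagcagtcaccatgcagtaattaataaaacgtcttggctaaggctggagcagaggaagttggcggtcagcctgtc
Hpgds (GRCm38.p6, chr6:65144731-65144980, minus strand): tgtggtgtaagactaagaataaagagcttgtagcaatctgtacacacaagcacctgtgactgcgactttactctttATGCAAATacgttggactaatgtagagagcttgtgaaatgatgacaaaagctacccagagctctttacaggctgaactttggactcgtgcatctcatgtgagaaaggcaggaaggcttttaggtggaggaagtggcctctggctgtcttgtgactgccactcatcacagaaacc
Alox5 (GRCm38.p6, chr6:116461179-116461428, minus strand): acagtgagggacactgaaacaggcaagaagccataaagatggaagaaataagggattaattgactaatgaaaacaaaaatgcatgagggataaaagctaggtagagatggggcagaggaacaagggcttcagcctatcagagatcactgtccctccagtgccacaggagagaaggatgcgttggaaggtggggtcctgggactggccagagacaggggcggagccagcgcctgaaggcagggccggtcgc
Ltc4s (GRCm38.p6, chr11:50238533-50238782, minus strand): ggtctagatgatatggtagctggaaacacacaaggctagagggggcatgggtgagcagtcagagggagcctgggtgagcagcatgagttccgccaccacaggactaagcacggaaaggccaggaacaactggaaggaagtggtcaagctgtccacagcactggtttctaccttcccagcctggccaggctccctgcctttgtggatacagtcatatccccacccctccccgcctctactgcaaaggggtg
The octamer stood once in the Hpgds promoter, on the strand of the gene, from 174 to 167 bases before the start. It was in none of the promoters of Ptgs1, Alox5 and Ltc4s. The search covered these bases and the next 50 past the start, here and in the whole table, where 570 of 32851 promoters held these letters on either strand, or 1.74%. Among 29 other genes of eicosanoid synthesis, breakdown, transport and reception, 22 had a promoter in the table, and 0 of their 26 promoters held the octamer. The looser letters ATGCNNAT, which include every octamer, were in 8.93% of all promoters, in that of Hpgds and in 1 of the 26, that of Ptger3, which encodes a receptor of prostaglandin E2. The longer letters TATGCAAAT, which contain the octamer, were in 0.627% of all promoters and again in that of Hpgds. These positions are of another build than the sites, so no site is placed on a promoter base by base, and a match of letters shows no binding.

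POU2F3 sites were listed at every one of the 5 genes, with 4 sites at the prostaglandin genes and 6 at the leukotriene genes. Ptgs1 and Alox5ap had 3 sites each, Alox5 had 2, and Hpgds and Ltc4s had 1 each. Together the windows spanned 1134 kb and so held 8.82 sites per Mb, which is 7.90 times the 1.12 sites per Mb of chromosomes 1 to 19 and X between their first and last sites. At that rate 1.27 sites would fall in the windows. The rate over chromosomes includes stretches without genes, and windows around other genes were not analysed here. The genes and windows were also chosen with earlier results of these data known. These counts therefore describe the 5 genes and give no independent evidence of enrichment.

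The count at each gene was set beside all adjoining stretches of the same length. Of 225 kb stretches, 1.95% held 3 or more sites, as the Ptgs1 window did, and 15.7% held at least 1. Of 230 kb stretches, 2.04% held 3 or more, as at Alox5ap, and 15.9% at least 1. For Alox5, 6.19% of 250 kb stretches held 2 or more sites and 17.1% held at least 1. For the single sites of Hpgds and Ltc4s, 15.9% of 229 kb stretches and 14.2% of 200 kb stretches held at least 1. Every stretch with 3 or more sites also holds at least 1. The larger shares for Hpgds and Ltc4s thus follow from their smaller counts.

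**Figure D1:**
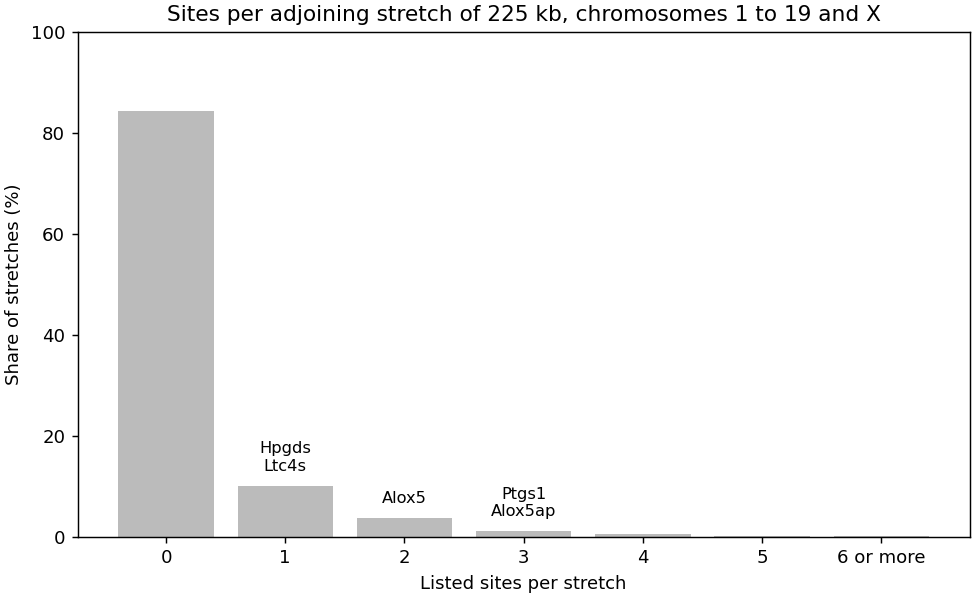
Share in percent of adjoining stretches of 225 kb on chromosomes 1 to 19 and X (vertical axis) by the number of listed POU2F3 sites they hold (horizontal axis), with the 5 genes written above the count in their own window. Most stretches hold 0 sites, and 1.95% hold 3 or more, the count at Ptgs1 and Alox5ap. Only the Ptgs1 window is 225 kb long. For the 230 kb of Alox5ap the share with 3 or more is 2.04%.

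In the prostaglandin branch, Ptgs1 had 3 sites on chromosome 2. The first lay at chr2:36043309-36043873 (mm9), was 565 bp wide and had a score of 11.1, which ranked 405 of 2828, where rank 1 is the highest score. The second lay at chr2:36102320-36102872, with a width of 553 bp, a score of 9.62 and rank 865. The third lay at chr2:36116589-36116831, with a width of 243 bp, a score of 11.8 and rank 272. All 3 scores were above the median of the list, 8.53, and the narrowest site had the highest. That site ranked 32 by score among the 852 sites in the same width quartile, the highest such rank of the 10 sites. Tied widths leave the quartile groups unequal in size.

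The places of these sites relative to the gene are approximate. Since the windows were drawn as the gene plus about 100 kb on each side, taking 100 kb off each side leaves an inner part that stands for the gene, with edges uncertain by kilobases. For any gene, a site within a few kilobases of such an edge may therefore lie on either side of the true gene edge. The second Ptgs1 site lay within the inner part, the third 6.71 kb past its upper edge and the first 41.4 kb below its lower edge. Ptgs1 is on the plus strand of GRCm38.p6, so the first site lay on the side where transcription starts. In the gene order of the same assembly, the protein-coding genes next to Ptgs1 are Mrrf and the olfactory receptor gene Olfr338. Which gene each site belongs to was not tested.

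Hpgds ranked lowest of the 5 genes by its best score. Its single site, at chr6:65094932-65095021 (mm9), was 90 bp wide and had a score of 7.46. It ranked 2104 of 2828 by score and 2734 by width, and so was the narrowest of the 10 sites. Among the 561 sites of the lowest width quartile it ranked 256, close to the middle. The site lay 1.02 kb inside the upper edge of the inner part, a distance within the uncertainty of that edge. Hpgds is on the minus strand, so that edge is the side where transcription starts, and the promoter printed above is the one with the octamer. The nearest other listed site was 438 kb away. Next to Hpgds in gene order are Smarcad1, which encodes a chromatin remodeller, and Qrfprl.

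In the leukotriene branch, Alox5 carried both the highest and the lowest score of the 10 sites. The site at chr6:116408583-116409472 (mm9) was 890 bp wide and had a score of 14.3, rank 77 of the list and 8 of the 194 sites on chromosome 6. It lay 0.973 kb inside the upper edge of the inner part, which is the start side because Alox5 is on the minus strand. The other site, at chr6:116361447-116361631, was 185 bp wide with a score of 5.45, rank 2782. It lay 1.54 kb inside the lower edge, near the far end of the gene, and 47.0 kb from the first. Both distances to an edge are within the uncertainty of the edges. The site on the start side was thus wide and high in score, and the one at the far end narrow and among the lowest in score. The octamer was not found in the 250 bases of the Alox5 promoter printed above. In gene order, Alox5 stands between Marchf8, which encodes a ubiquitin ligase, and the olfactory receptor gene Olfr211.

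Alox5ap had 3 sites, all wider than the upper quartile of the list, 526 bp. The site at chr5:150066941-150067780 (mm9) was 840 bp wide and had a score of 13.5, rank 115 of the list and 8 of the 190 sites on chromosome 5. It lay 2.64 kb below the lower edge of the inner part, a distance within the uncertainty of that edge. The site at chr5:150089285-150089867 was 583 bp wide with a score of 10.1, rank 687, and lay within the inner part, 21.5 kb from the one before. The site at chr5:150007434-150008126 was 693 bp wide with a score of 8.47, rank 1451, and lay 62.2 kb below the inner part. The scores at Alox5ap thus ran from the top 4.07% of the list to just below its median, with the site nearest an edge of the inner part the highest. Among the 707 sites of the highest width quartile, the lowest of the 3 scores ranked 607. The genes next to Alox5ap in gene order are Uspl1 and Medag.

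Ltc4s had a single site, at chr11:50051023-50051460 (mm9), which was 438 bp wide. Its score of 9.56 ranked 889 of 2828, above the median and below the upper quartile of 10.03. The window of Ltc4s was 200 kb long, which leaves no inner part once 100 kb is taken off each side. The site lay 1.24 kb from the centre of the window. No octamer was found in the promoter of this gene. Ltc4s stands between Mgat4b, which encodes a glycosyltransferase, and Maml1, which encodes a co-activator of Notch signalling. Distances from the site to these genes were not measured.

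**Figure D2:**
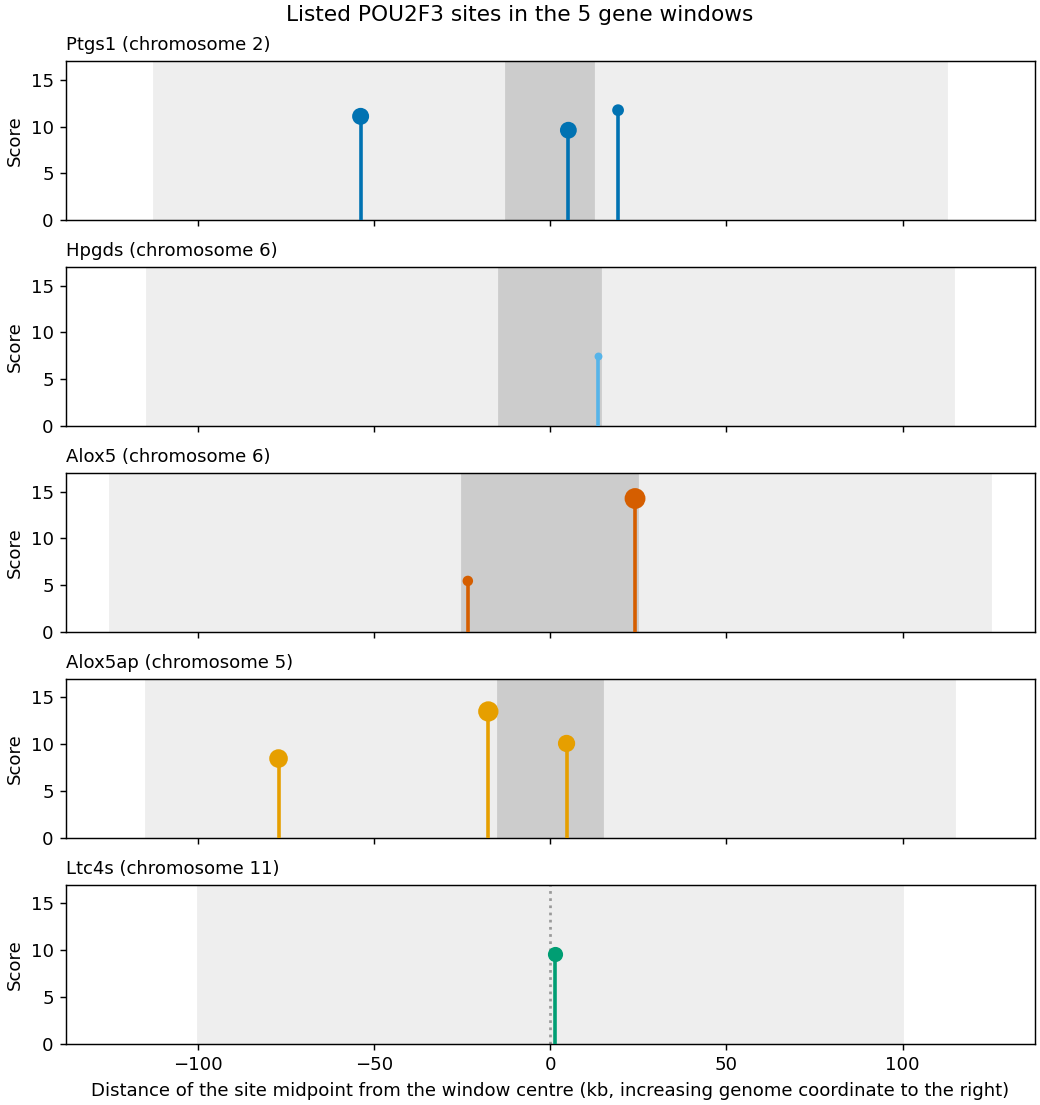
Score of each site (vertical axis, unit not given) against the distance of its midpoint from the centre of the gene's window in kb (horizontal axis), 1 panel per gene, with marker area proportional to site width. Light grey is the window, dark grey the inner part that stands for the gene, and the dotted line the centre of the Ltc4s window, which has no inner part. The highest sites of Alox5 (14.3) and Alox5ap (13.5) stand at an edge of the inner part, and these edges are uncertain by kilobases.

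As a group the 10 sites were wide, though not at every gene. Their median width was 559 bp, with a range of 90 to 890 bp, beside a median of 291 bp over the whole list, and 3 of the 10 were below that median. At or above the upper quartile of width were 6 of the 10, beside 25% of all sites. These were every site of Alox5ap, the first and second of Ptgs1 and the start-side site of Alox5, with none at Hpgds or Ltc4s. Of the 10, 3 were 600 bp or wider, beside 17.3% of the list. Those were the start-side site of Alox5 and both Alox5ap sites below its inner part. Another 4 were 400 to 599 bp wide, beside 20.8% of the list, and 3 were narrower. The narrow ones were the single site of Hpgds, the far-end site of Alox5 and the third of Ptgs1.

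The median score of the 10 sites was 9.85, with a range of 5.45 to 14.3, beside 8.53 over the list. At or above the median were 7 of the 10, beside 50% of the list, and at or above the upper quartile were 5, beside 25%. Both width and score were at or above their upper quartiles for 4 of the 10, beside 14.9% of the list: the first site of Ptgs1, the start-side site of Alox5 and the inner and edge sites of Alox5ap. Ordered by their best site, the genes ran Alox5 (rank 77), Alox5ap (115), Ptgs1 (272), Ltc4s (889) and Hpgds (2104). With 1 score per site and no replicate values, no order between neighbours in that row can be shown to exceed error. Taking the best site also favours genes with more sites: Ptgs1 and Alox5ap had 3, Alox5 had 2, and Ltc4s and Hpgds had 1.

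**Figure D3:**
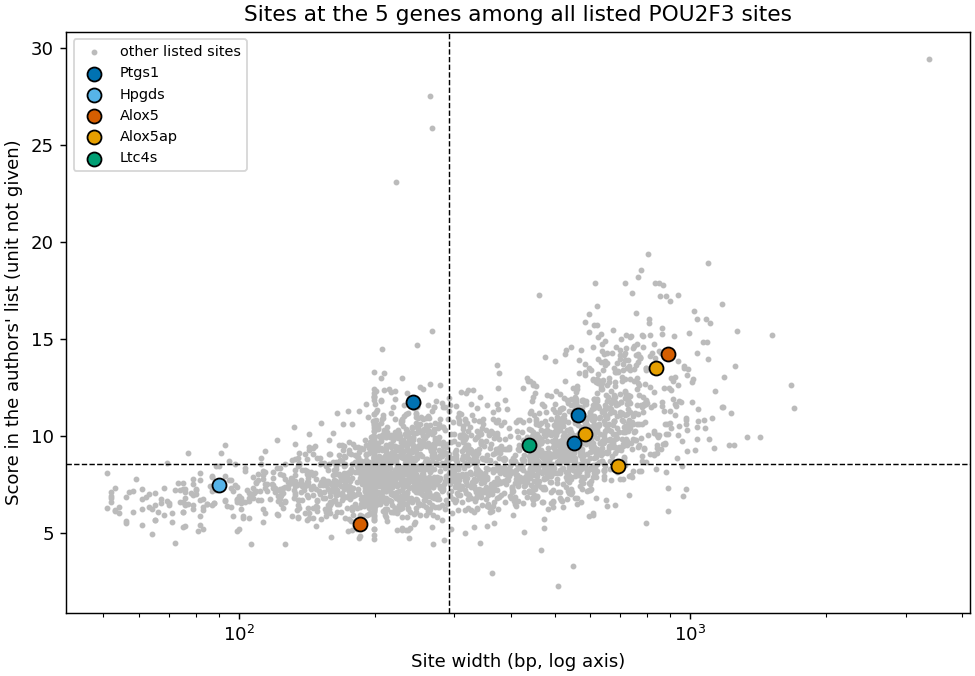
Score (vertical axis, unit not given) against width in bp (horizontal log axis) for every listed site, with the sites at the 5 genes in colour and the medians of the list, 291 bp and 8.53, as dashed lines. Of the 10 coloured points 6 lie in the upper right, and the Hpgds site and 1 Alox5 site lie in the lower left.

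The sites at these genes also stood apart from one another. None of the 10 had another listed site within 10 kb, beside 33.7% of all sites. The smallest gap was 13.7 kb, between the inner site of Ptgs1 and the narrow one above it, and the largest to any nearest neighbour was the 438 kb of Hpgds. The windows with several sites thus held separate ones and no run of close sites. The 5 genes lie on 4 chromosomes, and the windows of Hpgds and Alox5 are both on chromosome 6 without touching.

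No site lay close to an edge of a window. The site closest to an edge from within was the outermost of Alox5ap, 37.8 kb inside, with a width of 693 bp and a score of 8.47. The closest from without was a site at chr11:49835713-49835911 (mm9), 199 bp wide with a score of 7.97, which lay 114 kb below the Ltc4s window. Beyond the other windows, the next sites were at 247 kb from that of Ptgs1, 310 kb from that of Hpgds, 504 kb from that of Alox5ap and 928 kb from that of Alox5.

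Several things that bear on these sites were not analysed here. Values of the IgG control, the input DNA and each POU2F3 sample at the sites were not used, so enrichment could not be compared between samples. Sites at the 29 other eicosanoid genes were not counted, since no mm9 annotation was used. The labelled cell type could not be checked against tuft cell markers with a list of sites. A list of sites also says nothing of the level of any of the 5 genes.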

How the data were processed

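POU2F3 ChIPmentation of sorted mouse intestinal tuft cells gave 4 samples in the series, from which the authors deposited a single list of sites with a score in column 5. The unit of that score is not stated, and it was used only to rank sites within the list. The submitters' processing notes name FastQC, MACS2, Bowtie 0.12.8, SAMtools 1.3.1 and mm9, in no order and with no role. How replicates and controls entered the calling, and the threshold, are not stated in those notes or the labels. Such settings can change the number and the width of listed sites.

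Windows and genes were chosen with earlier results of these data known. Every site in a window is named, whatever its rank. Sites were shifted to 1-based positions, assigned by midpoint, and ranked by score and width. Background counts came from adjoining stretches of each window's length between the first and last site of a chromosome (1 to 19 and X). No test was run, because the list has no values per sample and sites are not replicates. Alternatives were overlap in place of midpoint, windows shortened by 50 kb, lengthened by 100 kb or reduced to the inner part, the sites at or above the median score, and joining of sites within 1 kb. For ranks, alternatives were leaving out mitochondrial sites and, for score, keeping only the same chromosome or width quartile. For shares of stretches they were shifted stretches, the same chromosome and the sites at or above the median score. Joining of sites within 1 kb or 10 kb in the stretches was added after seeing the data. Promoters are RefSeq's (GRCm38.p6), matched by symbol, 250 bases before to 50 after the start. The functions were tested on simulated data. Python 3.11.15, NumPy 2.4.6, pandas 2.3.3, SciPy 1.17.1 and matplotlib 3.10.9 were used.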

Additional observations from a re-analysis of the deposited data

How the results depend on the processing

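Of 87 alternative values of 23 results, 63 stayed within 1.5 times the count or within the exact 95% binomial interval of the share, which covers counting only, and 24 moved. Counting any overlap, lengthening the windows by 100 kb or joining sites within 1 kb left 10 sites at 5 genes, and shortening by 50 kb left 9. Overlap and joining could not change these counts, because no site lay that close to a window edge or to another site. Lengthening could not change them either, because the nearest site outside a window lay 114 kb from it. Leaving out mitochondrial sites hardly changed any rank, so the number that stayed overstates how far the results were tried. The inner part alone held 5 sites at the 4 genes that have one, with 1 at Ptgs1 and 1 at Alox5ap, which follows from the smaller stretch. That count is uncertain, since several sites lie within kilobases of an edge of the inner part. Sites at or above the median score numbered 7, with 0 at Hpgds and 1 at Alox5. Within the same width quartile, the best site of Ptgs1 was in the top 3.76% (9.62% over the list), that of Hpgds 45.6% (74.4%), Alox5 9.90% (2.72%), Alox5ap 14.9% (4.07%) and Ltc4s 28.2% (31.4%). Among sites of its own chromosome, the best site of Hpgds was in the top 69.6% and that of Alox5 in the top 4.12%. The share of stretches with as many sites, on the same chromosome only, was 18.2% for Hpgds, 8.13% for Alox5 and 18.5% for Ltc4s. With the sites at or above the median score, where Alox5 keeps 1 site, it was 0.50% for Ptgs1, 10.5% for Alox5 and 8.63% for Ltc4s, and no value exists for Hpgds. With sites within 1 kb joined it was 1.29% for Ptgs1, 4.81% for Alox5 and 1.41% for Alox5ap, and with sites within 10 kb joined 0.733%, 3.99% and 0.868%. Both joinings were chosen after seeing that no site at the 5 genes had a neighbour within 10 kb, so the counts at these genes could not change while those of other stretches could fall. Except where the construction is named, the cause was not tested. The octamer count, 1 promoter, was the same with looser and with longer letters. No paired analysis was possible because the list has no values per sample, and for the same reason no replicate could be left out. Sites per inner part of Ltc4s gave no value, because its window leaves none. The unknown depth limits what the absence of a further site can say.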

Other observations

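The flanks of 1 Mb were nearly empty on the side of higher genome coordinates, a pattern noticed after the values were seen. In the 1 Mb below each window, in genome coordinates, lay 8 sites in all, with 1 each for Ptgs1 and Ltc4s and 2 each for Hpgds, Alox5 and Alox5ap. In the 1 Mb above lay 1 site in all, at Alox5ap. Over both sides this gave 9 sites in 10 Mb, or 0.900 per Mb, beside 8.82 per Mb within the windows and 1.12 per Mb over the list. The rate in the flanks of 1 Mb was thus below that within the windows. The genes and windows were chosen with earlier results of these data known, so this contrast gives no independent evidence of enrichment at the genes. No test was run on these counts. They depend on the cut at 1 Mb: the nearest site below the Alox5 window lay at 928 kb, and the nearest above that of Ptgs1 at 1099 kb. The sides are also not sides of the genes, since Ptgs1 is on the plus strand and Hpgds, Alox5 and Ltc4s are on the minus strand.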
